A study of Arabidopsis thaliana with 15 samples.

Results

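Shared H3K4me3 peaks, meaning single peaks that lie over more than 1 gene, were taken from the deposited H3K4me3 peak list of Arabidopsis thaliana seedlings. A peak was kept where it was under 2000 bp wide and covered at least 200 bp of each of 2 or more nuclear protein-coding genes. The rule found 662 peaks among 17253 under that width, or 3.84%, and among 17686 in the whole list. They lay over 1319 of 27444 protein-coding genes, or 4.81%. Of these peaks, 648 covered 2 genes and 14 covered 3, which gave 676 pairs of consecutive genes, 672 of them different.

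Members were chosen by measured values, the width and position of the peak, so these are given as a description. The libraries came from native ChIP-seq (immunoprecipitation of uncrosslinked chromatin digested by micrococcal nuclease) on whole seedlings of accession Col-0 labelled 8 days old (for 1 bdrs input library another field says 7 days). H3K4me3, H3K36me3, H3K4me2, total H3 and input chromatin were each sequenced in 1 library of the fpa single mutant (fpa-7), 1 of the bdrs triple mutant and 1 of wild type, 15 libraries in all. The data used here are 3 peak lists, 1 per methylation mark, whose peak names say that a mark's libraries were pooled and set against the pooled H3 libraries. The lists hold no value for a genotype and no replicate error, the depth behind them is unknown, and the mutants are not compared with wild type here. Of the tissue markers looked up, 5 of 5 for green tissue, 2 of 5 for root, 0 of 4 for seed and 2 of 3 for pollen (ACT11 and TUA1) carried H3K4me3.

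Trimethylation of lysine 4 on histone H3 marks nucleosomes just downstream of transcription start sites of active genes, while H3K36me3 covers more of the transcribed body and H3K4me2 in plants lies on the body of active genes and also on some weakly expressed ones. The Arabidopsis genome is compact, so the ends of neighbouring genes lie close together or overlap. Where 1 H3K4me3 peak spans the junction of 2 genes, a gene-by-gene count assigns the mark to both, although the peak may start from either or from both. The strand of the genes was not in the reference table used, so whether a pair is transcribed divergently, in tandem or convergently is not analysed here. Order, spacing and the position of the peak summit are described in place of it.

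Most pairs under a shared peak had annotated bodies that overlapped. Bodies overlapped in part in 294 pairs (43.5%), 1 gene lay inside the other in 158 pairs (23.4%), and in 224 pairs (33.1%) the bodies were apart. Among all 27439 adjacent gene pairs, 12.9% overlapped or were nested. In the 224 pairs apart the gap had a median of 64.5 bp with quartiles of 27.75 and 116.25 bp, and the widest was 442 bp. It was under 100 bp in 150 pairs and under 250 bp in 213. The bound of 2000 bp would allow gaps wider than this, but a peak must then span the gap and 200 bp of each gene. The overlap had a median of 325 bp in partly overlapping pairs and 829.5 bp in nested ones. In 108 of the 676 pairs at least 1 gene lay wholly inside the peak.

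The closer the genes, the more often they shared a peak. A peak that meets the rule must span the gap and 200 bp of each gene. Peaks on 1 gene had a median width of 826 bp, so the rule itself lowers the share as the gap widens. The part of the rule in these shares was not tested. Of 1738 adjacent pairs 0 to 99 bp apart with H3K4me3 on both genes, 149 (8.57%) had a shared peak, against 62 of 1665 (3.72%) at 100 to 249 bp and 11 of 1216 (0.905%) at 250 to 499 bp. Among 1416 such pairs at 500 to 999 bp and 3713 farther apart, 0 did. Partly overlapping pairs with H3K4me3 on both genes shared a peak in 289 of 1938 cases (14.9%) and nested pairs in 152 of 161 (94.4%). For a nested pair this follows nearly from the geometry, as a peak on the inner gene lies on the outer one too. In a partly overlapping pair a peak inside the shared part also meets the rule where that part is 200 bp or longer. Most partly overlapping or close neighbours with H3K4me3 on both genes had separate peaks, 1606 overlapping pairs and 1560 at 0 to 99 bp.

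**Figure D1:**
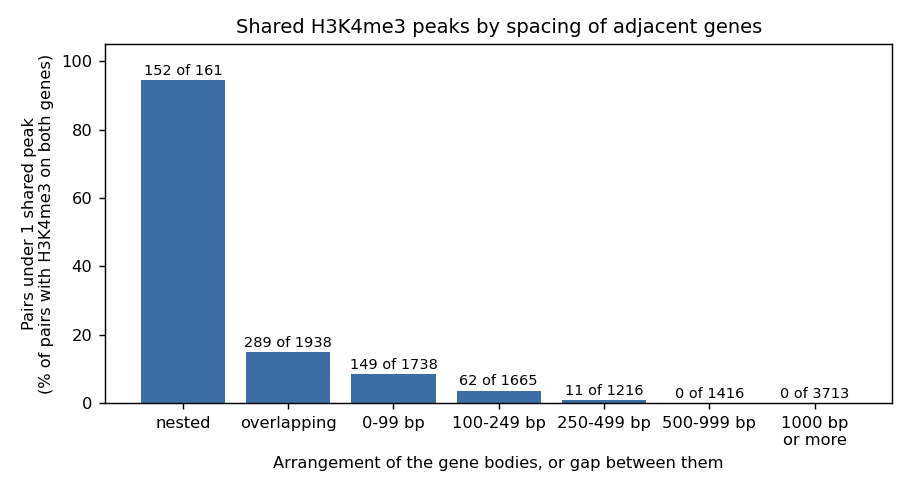
Bars give the share of adjacent gene pairs with H3K4me3 on both genes (at least 200 bp covered) that lie under 1 shared peak, by arrangement of the gene bodies or by the gap in bp, with the counts above the bars. The share is 94.4% for nested pairs, 14.9% for overlapping pairs and 8.57% at 0-99 bp, and 0 from 500 bp on.

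Shared peaks were wider than peaks on 1 gene, which the rule brings about, and had like fold enrichment. The authors' fold, the caller's ratio of the pooled mark over pooled H3, had a median of 9.17 (quartiles 7.01 and 10.4) at shared peaks and 8.88 (6.81 and 10.1) at the 15934 peaks under 2000 bp on 1 gene. The median width was 1246 bp at shared peaks, against 826 bp at peaks on 1 gene. It was 1479.5 bp for pairs apart, 1161.5 bp for overlapping and 912.5 bp for nested pairs. Shared peaks made up 3.24% to 4.50% of peaks under 2000 bp on the 5 chromosomes. At the width bound, the peaks just inside measured 1999 bp (NdhN and ABCB25) and 1998 bp (HTA10 and bHLH115), and those just outside measured 2001 bp (AT1G22190 and AT1G22200) and 2004 bp (AT3G26510 and AT3G26512). At the bound on covered length, 201 bp of AT3G62695 beside ATL5 and 202 bp beside INDH were just inside, while 196 bp beside AT4G36791 and 195 bp beside ELF6 were just outside.

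Both genes had a symbol in 76 different pairs, and 0 of these pairs had the same leading letters (3 or more) in both symbols. Among pairs apart with a symbol on both genes, the peak with the highest −log10 p covered 732 bp of ALF4, needed for lateral root formation, and 951 bp of TRS120, a subunit of a vesicle tethering complex, on chromosome 5 from 3494442 to 3496145 (TAIR10), with a fold of 12.1 and a gap of 21 bp. The next was on chromosome 3 from 6023840 to 6025662, over 867 bp of HYH, a bZIP factor of light signalling related to HY5, and 868 bp of RBL14, a rhomboid-like gene, with a fold of 11.7. HYH lay wholly under its peak, and both genes of the fourth pair, EMB3119 and TIM23-3, a subunit of the mitochondrial protein import channel, lay wholly under theirs, at 992 and 567 bp. The third of these pairs by −log10 p was G6PD4, a glucose-6-phosphate dehydrogenase gene, and ACLA-3, a subunit of ATP-citrate lyase, at a fold of 11.6. G6PD4 also shared a peak at its other end, with NIMIN-3. All 4 of these pairs carried H3K36me3 and H3K4me2 on both genes.

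Among all pairs with a symbol on both genes, the highest −log10 p was that of an overlapping pair. MED22B, a Mediator subunit, and PDIL5-1, a disulfide isomerase-like gene, overlap by 21 bp and shared a peak of 1541 bp on chromosome 1 from 2466245 to 2467785 with a fold of 13.6. At that junction the other marks were split: H3K36me3 was listed from 2465876 to 2467036 and from 2467161 to 2468581, and H3K4me2 from 2466175 to 2466981 and from 2467224 to 2468037. NF-YB2, a subunit of the trimeric factor NF-Y, and the Nudix hydrolase gene NUDT2 overlap by 81 bp and shared a peak with a fold of 11.3, of which 1046 bp lay on NF-YB2 and 324 bp on NUDT2. ADT6, an enzyme of phenylalanine synthesis, and TIL1, the catalytic subunit of DNA polymerase epsilon, overlap by 1756 bp, and the whole peak of 1353 bp lay in the part they share. The nested pairs with the highest −log10 p and a symbol on both genes were LINC4 with ATBCAT-5, UKL4 with CPSUFE, DMS3 with emb1796 and PSRP3/2 with GNA1, at folds of 8.76 to 9.73. For the first 3 of these the whole peak lay inside both annotated bodies, so it cannot be assigned to either gene. DMS3 acts in RNA-directed DNA methylation.

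**Figure D2:**
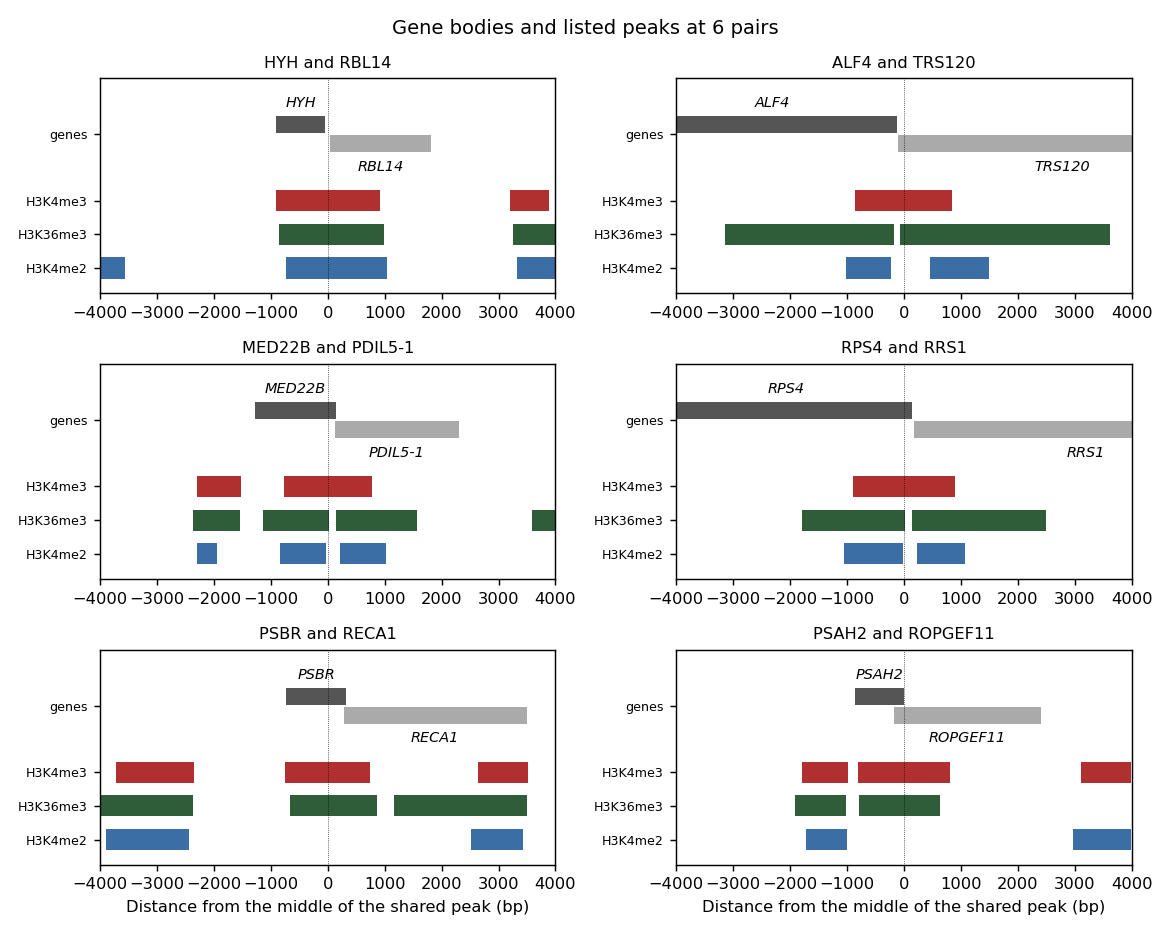
Each panel shows the 2 annotated gene bodies (dark and light grey) and the listed peaks of H3K4me3 (red), H3K36me3 (green) and H3K4me2 (blue) by distance in bp from the middle of the shared peak. At ALF4 and TRS120, MED22B and PDIL5-1, and RPS4 and RRS1, 1 H3K4me3 peak spans the junction while the other marks are listed as 2 peaks, and no H3K4me2 peak lies on PSBR, PSAH2 or ROPGEF11.

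The summit, the position of highest signal given by the caller, lay inside 1 gene of the pair in 421 of 676 pairs (62.3%), inside both in 249 overlapping or nested pairs and in the gap in 1 pair. In pairs apart with the summit in 1 gene (221), the summit lay a median of 239 bp inside that gene from the end that faces the neighbour (quartiles 152 and 353 bp). It was in the gene with the higher coordinates in 121 of these pairs and in the other in 100. The gene with the summit was covered over a median of 755 bp and its neighbour over 598 bp, and the neighbour was covered over a greater length in 60 pairs. These lengths are bounded by the rule, and 48 of the 662 peaks covered 200 to 249 bp of their second most covered gene. In overlapping pairs with the summit in 1 gene (179), the medians were 860 bp on the gene with the summit and 525 bp on the neighbour.

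**Figure D3:**
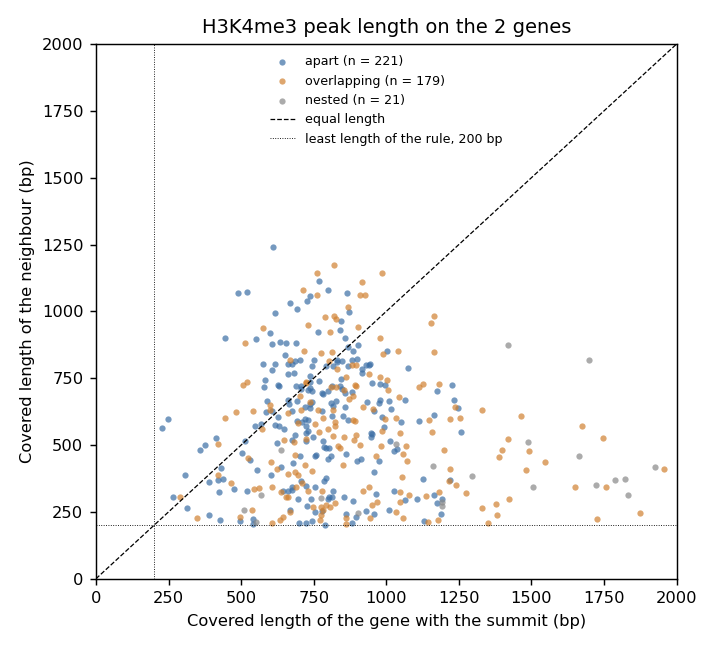
Each point is 1 of the 421 pairs with the H3K4me3 summit in 1 gene, with the covered length of that gene in bp on the x axis and that of its neighbour on the y axis, coloured by arrangement. The neighbour was covered over more bp than the gene with the summit in 93 pairs, which lie above the dashed line.

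For most neighbours the shared peak was the only listed H3K4me3. Of the 421 genes with the summit, 11 (2.61%) had another H3K4me3 peak over at least 200 bp, against 129 of 421 neighbours (30.6%). In pairs apart 61 neighbours had another peak, and each of these 61 peaks had its summit beyond the middle of the neighbour, on the side away from the pair. The shared peak already covers the facing end of the neighbour, which leaves room for another peak mainly on that side. Among overlapping pairs, RECA1, a plastid recombinase, is an example of a neighbour with another peak. Beside the peak shared with PSBR it had its own from 29739317 to 29740193 on chromosome 1, with a fold of 10.7. In all, 298 genes, or 1.74% of 17151 genes that carried H3K4me3, had it from 1 shared peak with no H3K4me3 summit inside the gene.

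H3K36me3 was found on both genes in 476 of the 676 pairs (70.4%, against 28.2% of all adjacent pairs), on 1 gene in 108 and on neither in 92 (13.6%, against 28.7% of all adjacent pairs). Adjacent pairs with H3K4me3 on both genes are the closer comparison. Among pairs no more than 442 bp apart, overlapping or nested, H3K36me3 was on both genes in 70.3% of 663 adjacent shared pairs and in 70.9% of 5732 pairs with separate H3K4me3 peaks. Neither gene carried it in 13.6% of the shared pairs and in 2.86% of the separate pairs. The shared pairs include 152 nested ones and the separate pairs 0, so values within one arrangement are given too. This difference was present in pairs apart, at 9.01% of shared and 3.15% of separate pairs, and in overlapping pairs, at 13.1% of shared and 2.12% of separate pairs. The length of the gap was not matched. Of 222 adjacent shared pairs apart, 149 had a gap of 0 to 99 bp, against 1560 of 4126 separate pairs apart. Genes of shared pairs were shorter, with a median for the shorter gene of 1251 bp in shared pairs, against 1932 bp in separate pairs, and the part of length in the difference was not tested. Peaks and genes are not replicates of a condition, and no test was made of these shares.

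The neighbour without the summit carried H3K36me3 nearly as often as the gene with it. H3K36me3 was on 344 of 421 genes with the summit (81.7%) and on 333 of 421 neighbours (79.1%), with 45 pairs in which the gene with the summit alone carried it and 34 in which the neighbour alone did. In overlapping or nested pairs 1 H3K36me3 peak in the shared part can count for both genes. In the 221 pairs apart the shares were 83.7% of genes with the summit and 78.3% of neighbours. There too 1 peak can span both genes. Where adjacent genes up to 442 bp apart had H3K4me3 on 1 gene, H3K36me3 was on 84.0% of the genes with H3K4me3 and on 4.80% of the others, over 4023 pairs. Over all protein-coding genes the share was 49.8%. H3K36me3 covered a median of 70.0% of the body of genes with the summit and 62.3% of that of the neighbours.

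H3K4me2 was found on both genes in 557 of the 676 pairs (82.4%, against 59.2% of all adjacent pairs), on 1 gene in 95 and on neither in 24 (3.55%, against 9.61% of all adjacent pairs). Among pairs no more than 442 bp apart, overlapping or nested, it was on both genes in 82.4% of 663 shared pairs and in 89.4% of 5732 separate pairs. It was on neither in 3.62% of shared and 0.314% of separate pairs. Gaps within that bound were not matched here either. Within one arrangement, neither gene carried it in 0.901% of shared pairs apart (2 pairs), against 0.315% of separate pairs apart, and in 3.81% of shared overlapping pairs, against 0.311% of separate overlapping pairs. In nested shared pairs the share was 7.24%, with 0 separate pairs to set beside it. Here the gene with the summit was the one that lacked it more often. H3K4me2 was on 356 of 421 genes with the summit (84.6%) and on 403 of 421 neighbours (95.7%), with 11 pairs in which the gene with the summit alone carried it and 58 in which the neighbour alone did. Pairs with photosystem genes, described below, are among these 58. All protein-coding genes carried it at 74.8%, and H3K4me3 was on 62.5% of them. The median length was 1714 bp for genes with the summit and 2269 bp for neighbours.

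**Figure D4:**
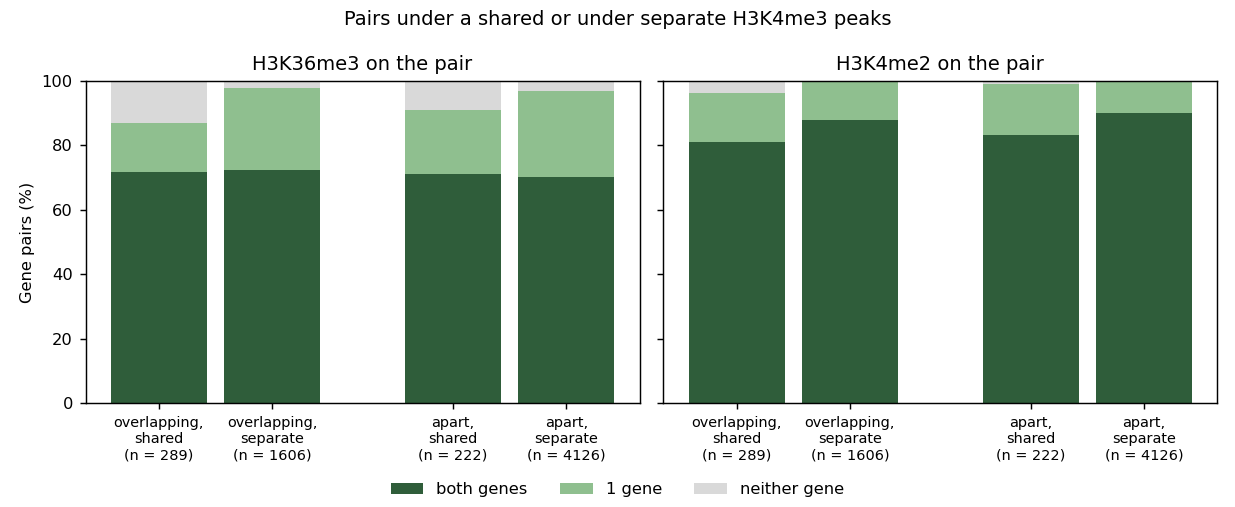
Stacked bars give the share of gene pairs in percent with H3K36me3 (left) or H3K4me2 (right) on both genes, 1 gene or neither, for adjacent pairs under a shared and under separate H3K4me3 peaks, in overlapping pairs and in pairs up to 442 bp apart. Pairs with H3K36me3 on neither gene make up 13.1% of shared and 2.12% of separate overlapping pairs.

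Counted by peak, 509 of the 662 shared peaks (76.9%, against 76.1% of all H3K4me3 peaks) overlapped H3K36me3 by at least 1 bp, and 77.2% of peaks on 1 gene did. H3K4me2 overlapped 585 shared peaks (88.4%, against 94.5% of all H3K4me3 peaks) and 95.4% of peaks on 1 gene. Of the 77 shared peaks without H3K4me2, 12 lay on a photosystem or chlorophyll-binding gene. Among the 645 shared peaks on no such gene, 89.9% overlapped H3K4me2. The lower H3K4me2 share held within classes of length of the most covered gene. It was 81.6% of shared peaks and 89.7% of peaks on 1 gene for genes under 1000 bp, 85.0% of shared peaks and 93.1% of peaks on 1 gene for genes of 1000 to 1999 bp, and 92.2% of shared peaks and 96.6% of peaks on 1 gene for longer genes. For H3K36me3 the classes differed in direction, with 64.3% of shared peaks and 41.3% of peaks on 1 gene for genes under 1000 bp, 77.8% of shared peaks and 70.1% of peaks on 1 gene for genes of 1000 to 1999 bp, and 79.8% of shared peaks and 82.0% of peaks on 1 gene for genes of 2000 bp or more.

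The other marks dipped where the H3K4me3 peak bridged the gap. In the 221 pairs apart with the summit in 1 gene, H3K4me3 covered the middle of the gap in 100% of pairs, which the rule brings about. H3K36me3 covered a point 25 bp from that middle, on the side of the gene with the summit, in 46.6% of pairs, against 80.1% at 475 bp from the middle on that side and 66.1% at 475 bp on the side of the neighbour. For H3K4me2 these shares were 31.7% at 25 bp, 76.9% at 475 bp on the side of the gene with the summit and 74.7% at 475 bp on the side of the neighbour. The same shares over pairs with separate H3K4me3 peaks are not given here, so the dip is not read as particular to shared pairs. Where both genes of a pair apart carried H3K36me3 (160 pairs), 1 peak spanned both in 86, and for H3K4me2 in 60 of 186. In partly overlapping pairs 1 peak covered at least 200 bp of each gene in 169 of 210 pairs with H3K36me3 on both genes. For H3K4me2 this was so in 167 of 238. The overlap had a median of 325 bp, so a peak inside the shared part alone can meet this. RARE1, a factor of plastid RNA editing, and AK-LYS1, an aspartate kinase, 4 bp apart, show both forms: 1 H3K36me3 peak ran from 4247652 to 4252035 on chromosome 5, while H3K4me2 was listed from 4248197 to 4249282 and from 4249528 to 4250568.

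**Figure D5:**
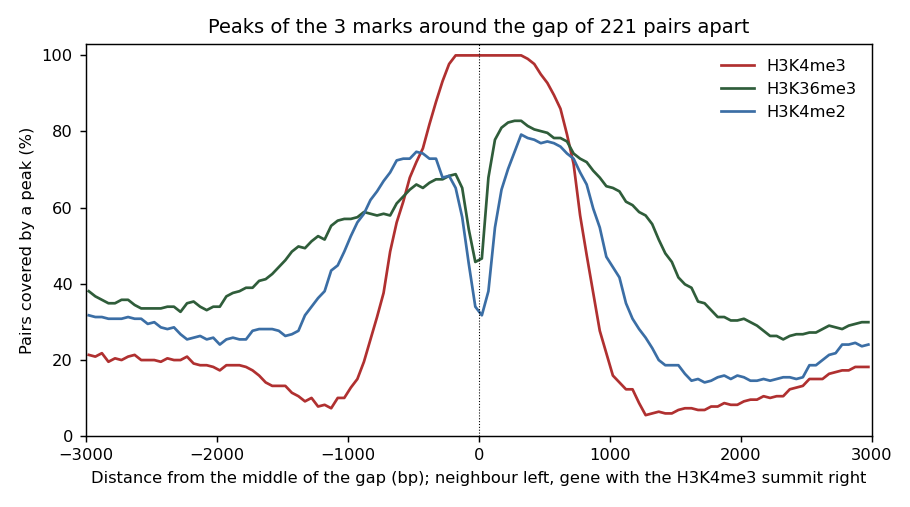
Lines give the percent of the 221 pairs apart that were covered by a peak of each mark at each distance in bp from the middle of the gap, in steps of 50 bp, with the neighbour on the left and the gene with the H3K4me3 summit on the right. H3K4me3 covers 100% at the middle by the rule, while H3K36me3 falls to 46.6% and H3K4me2 to 31.7% at 25 bp.

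Combining both marks, 394 pairs (58.3%) carried H3K36me3 and H3K4me2 on both genes, 80 (11.8%) carried H3K4me2 on both genes and no H3K36me3, and 15 (2.22%) carried H3K36me3 on both genes and no H3K4me2. A further 7 pairs carried neither mark on either gene. H3K36me3 was on 1 gene at AT1G79790, listed as FHY1, and ENODL7, an early nodulin-like gene, where it covered 1211 bp of the first and 0 bp of the second. With IYO, which acts with RNA polymerase II in cell differentiation, and GGR, the H3K4me3 summit lay in GGR and H3K36me3 in IYO alone, listed from 17989057 to 17992256 on chromosome 4, beside a second H3K4me3 peak of IYO from 17989047 to 17989914. SUMO5 with the phosphatase gene PAP13 (fold 6.07), LpxD2 with the receptor-like kinase gene CRK27 (fold 4.71) and SIP1;2 with NAC088 (fold 3.01) had H3K36me3 on neither gene and H3K4me2 on both. The deposited lists are numbered with gaps, and a missing peak number fell between the flanking listed peaks at 87 of the 92 pairs without H3K36me3 and at 23 of the 24 without H3K4me2. Whether those peaks lay on the pair is unknown, so a pair without a listed peak is not shown to lack the mark. The same count over pairs with the mark is not given here, so these counts are not read as particular to pairs without it.

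Photosystem and chlorophyll-binding genes lay under a shared peak more often than all protein-coding genes and mostly lacked H3K4me2 there, while most of their neighbours had it. Of 58 such genes recognised by symbol or name, 17 (29.3%) lay under a shared peak, against 4.81% of all protein-coding genes and 7.69% of genes with H3K4me3. The summit lay inside the photosystem gene in 18 of 18 pairs, and in 2 of these it lay inside the neighbour too. H3K4me2 was on 2 of the 17 genes, PSAD-1 and APO3, and on 23 of the 41 that lay under no shared peak. The neighbour carried it in 14 of the 18 pairs. APO3 has no symbol of a photosystem subunit or chlorophyll-binding protein and counts in this group by the words of its name. At PSBR, a photosystem II subunit, and RECA1, H3K4me2 covered 0 bp of PSBR and 922 bp of RECA1, in a peak from 29739191 to 29740112 at the far end of RECA1. At CAB1, a gene for the major chlorophyll-binding protein, and NRPA2, the second largest subunit of RNA polymerase I, both H3K36me3 and H3K4me2 covered 0 bp of CAB1, with 5728 bp and 1486 bp on NRPA2. The same split was found at LHB1B2, with H3K36me3 over 2761 bp of its neighbour RWA3, an enzyme of wall acetylation, and 0 bp of its own, and at CAB3 beside CARB, a subunit of carbamoyl phosphate synthase. CPISCA, an iron-sulfur cluster scaffold gene, lacked H3K4me2 beside emb2004, which carried it. CP12-2, a redox regulator of the Calvin cycle, likewise lacked H3K4me2 beside the transcription factor gene BZIP53, which carried it over 632 bp.

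The pairs PSAH2 with ROPGEF11 and ROPGEF13 with PSAH-1 are formed by related genes on both sides, a subunit of photosystem I and an exchange factor for ROP GTPases, and had the same state. PSAH2 and ROPGEF11 overlap by 174 bp, with a shared H3K4me3 peak of 1629 bp on chromosome 1 from 19454850 to 19456478 (fold 7.84). PSAH-1 and ROPGEF13 overlap by 788 bp, with a peak of 1328 bp on chromosome 3 from 5468142 to 5469469 (fold 9.49). In both pairs the summit lay in the photosystem gene, 1 H3K36me3 peak lay over both genes, and H3K4me2 covered 0 bp of either gene. The PSAH, PSAD, CAB and LHCB2 genes are members of families of near-identical copies, and reads that fit several copies make the peaks of each copy uncertain. Photosystem genes in shared pairs had a median length of 1219 bp, against 2078 bp over all genes. The part of length in how often they lay under a shared peak was not tested.

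The counts of other groups are read against 4.81% of all protein-coding genes and 7.69% of genes with H3K4me3. Their counts of other marks are read against all 1319 genes under shared peaks, of which 1183 carried H3K4me2 and 1033 H3K36me3. Of 24 histone genes recognised by name, 9 (37.5%) lay under a shared peak, among them HTA10 with the bHLH gene bHLH115 and HTB9 with the expansin-like gene EXLA1, and 8 of the 9 carried each of the other marks. Histone genes too are closely similar copies. Ribosomal protein genes had 9 members of 67 (13.4%) and DNA repair and replication genes 4 of 28 (14.3%), while translation factor and tRNA ligase genes had 0 of 38. Of 12 genes with pentatricopeptide repeat in a symbol or synonym, 3 (25.0%) were members. Groups hold only genes so named, so their shares need not hold for a whole family. Embryo-defective genes had 20 of 260 (7.69%), or 8.00% of those with H3K4me3, which is near the share over all genes with H3K4me3, and all 20 carried both other marks. RNA polymerase subunits had 3 of 40 (7.50%), ubiquitin and proteasome genes 8 of 150 (5.33%) and glycosyltransferases 3 of 73 (4.11%). Lower shares were found among kinases (14 of 583, or 2.40%), transporters (8 of 398, or 2.01%), transcription factors (22 of 655, or 3.36%) and cytochrome P450 genes (4 of 236, or 1.69%). Of the genes with H3K4me3 in these 4 groups, the members made up 3.05% of 459 kinases, 3.35% of 239 transporters, 6.20% of 355 transcription factors and 3.74% of 107 cytochrome P450 genes.

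Among immune receptor genes, RPS4 and RRS1, whose proteins act together as a receptor pair, shared a peak of 1791 bp on chromosome 5 from 18325139 to 18326929 with a fold of 10.1 across a gap of 27 bp. It covered 1037 bp of RPS4 and 727 bp of RRS1. H3K36me3 was listed on each gene, from 18324246 to 18326055 and from 18326176 to 18328525, as was H3K4me2, from 18324989 to 18326010 and from 18326265 to 18327106, so both marks were interrupted at the junction. RPS2, another receptor gene of bacterial resistance, shared a weaker peak (fold 6.08) with CK1, and its summit lay in the 423 bp by which the genes overlap.

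Of the genes the study concerns, FPA and FLC were not under a shared peak. AT5G11430, taken as a BDR locus from recall, was the outer gene of a nested pair with AT5G11425, and its H3K4me3 peak on chromosome 5 from 3647875 to 3648830 (fold 10.7) covered 956 bp of it and 210 bp of the inner gene. The other loci taken as BDR genes, AT5G25520 and AT2G25640, carried H3K4me3 but were not under a shared peak.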

How the data were processed

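The submitters' processing notes name MACS2, R 3.3.2, SAMtools 1.3, Picard 2.2.4, Bowtie2 2.2.6 and Trimmomatic 0.33, and the build TAIR10, without role or order. The deposited fold is the caller's ratio of the pooled mark over pooled H3. The −log10 p and summit are as deposited by the authors, as is the score, which is the −log10 p times 10 without its decimals and was not used. Peaks were set on protein-coding genes of the RefSeq table for TAIR10.1, whose coordinates are not printed. The share of H3K4me3 peak sequence inside genes was 96.2% with no offset and lower at every step of 100 bp up to 1000 bp either way. A mark was counted on a gene when its peaks together spanned 200 bp of the gene or more. Analyses used Python 3.11.15, pandas 2.3.3, numpy 2.4.6 and scipy 1.17.1, and the search for shared peaks was tested on simulated data. Pairs with separate peaks exclude those under 1 shared peak of 2000 bp or wider (95 such peaks).

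The members and lists were chosen with earlier results of these data known. Planned orientation classes and promoter motifs were not analysed, and arrangement replaced orientation. Named pairs had a symbol on both genes: the 4 with the highest −log10 p per arrangement, the 2 smallest and largest gaps, and the 3 highest with a mark on 1 gene or neither. Peaks over 3 genes with a symbol on each numbered 0. RPS4, RPS2, CAB1, CAB3 and the gene groups' examples were chosen after their values were seen. Gene groups rest on words in symbols and synonyms. No test across samples was possible with 1 pooled list per mark.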

Additional observations from a re-analysis of the deposited data

How the results depend on the processing

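Of 71 values under 9 other settings, 35 stayed within the main value's 95% binomial interval (by order statistics for a median, within 1.5 times for a count) and 36 did not. With 100 bp covered, H3K36me3 and H3K4me2 on both genes came to 65.1% and 78.9% and the median width to 1183.5 bp; with 300 bp the width was 1303 bp. With widths under 3000 bp it was 1325.5 bp. Under 1500 bp, 74.9% of pairs overlapped or were nested, the median gap was 49.5 bp, H3K36me3 was on both genes in 65.3% and on neither in 17.3%, the summit lay in 1 gene in 51.1%, and fold and width had medians of 8.76 and 1023 bp. The strongest 50% of each list left 390 peaks, with 61.6% overlapping or nested, H3K36me3 on both genes in 46.0% and neither in 33.7%, H3K4me2 in 36.7% and 38.7%, the summit in 1 gene in 67.8%, medians of 10.1 and 1378.5 bp, and overlaps of 61.0% with H3K36me3 and 53.1% with H3K4me2, shares that fall by construction when peaks are dropped. Without pairs whose bodies overlap, 224 peaks were left, H3K36me3 was on neither gene in 8.93% and H3K4me2 in 0.893%, the summit lay in 1 gene in 98.7%, and medians were 9.53 and 1479.5 bp. With a summit required inside the gene, both genes carried H3K36me3 in 45.1% and H3K4me2 in 63.0% of pairs. With 50% of the body, these were 49.7% and 27.7%, and neither gene carried them in 21.4% and 34.0%. Under a demand for 50% coverage of the peak, 82.0% overlapped H3K4me2.

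No paired analysis was possible because each list pools its libraries. Orientation alternatives were not run, and depth is unknown.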

Other observations

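Of the 14 peaks over 3 genes, the one with the highest −log10 p lay over NFU5, AT1G51400 and AT1G51402 on chromosome 1 from 19051469 to 19052562 with a fold of 11.9. A peak of 1344 bp covered 780 bp of PSAG, a subunit of photosystem I, 252 bp of AT1G55660 and 479 bp of AT1G55673, which is nested with PSAG. The arabinogalactan protein genes AGP21 and AGP26 were each the middle gene of such a peak, at folds of 5.88 and 4.23. AGP26 lay beside NET3C, an actin-binding protein gene, and neither carried H3K4me2. These peaks were named after their values were seen.

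Non-coding genes of the table overlapped 75 of the 662 shared peaks (11.3%), against 5.18% of 15934 peaks on 1 gene. Most were lncRNA genes, at 64 shared peaks (9.67%), against 4.19% of peaks on 1 gene, and antisense RNA genes lay at 6 shared peaks. Wider peaks can overlap more genes, and the part of width in this difference was not tested.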
